A study of Mus musculus with 8 samples.

Results

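The immunity-related GTPases (IRG) are a family of interferon-induced enzymes with which mouse cells attack the membrane around intracellular parasites and bacteria. They are described here in microglia, the macrophages that live in the brain and spinal cord, through 7 genes chosen by name: Irgm1, Irgm2, Igtp, Iigp1, Ifi47, Tgtp1 and Tgtp2. They are 7 of the 41388 genes counted in each RNA-sequencing library, and 6 of them passed the filter on low counts that left 12002 genes for testing. Microglia of adult C57BL/6 mice were isolated with antibodies to CD11c, CD11b and CD45. Mice with neuromyelitis optica (NMO) gave CD11c+ microglia (n = 2) and CD11c- microglia (n = 3). In people NMO is an inflammation that damages mainly the optic nerves and the spinal cord. Mice described as unmanipulated gave the control microglia (n = 3). Total RNA was used from every group, and the labels name no transgene or drug. How the disease was produced, and whether each library is a separate mouse, is not given in the sources used here, so p-values measure the spread between these libraries, which may be technical. The sample titles call the control cells total microglia, whereas another label calls them CD11c negative. The control libraries carry the numbers 21 to 23 and the NMO libraries the numbers 7 to 12. Any difference in handling between these sets cannot be told apart from disease.

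Total counts were 7500815 to 9246061 in control libraries and 6437516 to 6819662 in those of NMO CD11c- cells. The libraries of CD11c+ cells were the shallowest, at 4943207 and 5914412. The summed level of 12 microglial markers was 43964 to 48501 CPM (counts per 1000000 counts of the scaled library size) in controls, 35330 to 43919 in NMO CD11c- and 33819 to 35620 in CD11c+ libraries, so every NMO library lay below every control. Of these markers 2 were called lower in CD11c- and 6 in CD11c+ cells, and their part in the members' values was not tested. Itgax, which encodes CD11c, was at 30.6 to 32.1 CPM in controls, 35.5 to 41.3 in NMO CD11c- cells and 181 to 188 in CD11c+ cells. CD11c+ replicate 1 stood apart in base composition: the rank correlation across genes between its deviation and GC content was 0.592, against -0.299 to -0.0378 in the others. The summed level of 13 neutrophil markers was 17.6 to 22.2 CPM in CD11c+ libraries, 2231 to 11629 in NMO CD11c- libraries and 925 to 1914 in controls. Over the CD11c+ libraries Ly6g and Elane had 0 counts, and the other markers of this list had from 1 count (Mmp8) to 50 counts (Ltf). The summed level of 18 immediate early genes, which respond to handling of cells, was 24941 to 52622 CPM in controls, 8209 to 21515 in NMO CD11c- libraries and 10053 and 42272 in the CD11c+ libraries. Every NMO CD11c- library was below every control in that sum, and its part in the members' values was not tested.

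IRG proteins are switched on at the level of transcription. Interferon gamma leads to binding at gamma-activated sites, and type I interferons lead to binding at interferon-stimulated response elements. The family has a pair of classes named after their nucleotide-binding motif. GMS proteins (Irgm1, Irgm2 and Igtp, also called Irgm3) sit on the cell's own membranes and hold the others in the inactive state. GKS proteins (Iigp1, also called Irga6; Ifi47, also called Irgd; and Tgtp1 and Tgtp2, which encode Irgb6) are the effectors, which load onto the vacuole of a parasite such as Toxoplasma and disrupt it.

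The sequence upstream of the RefSeq start is shown because 4 of the members, from both classes, carry nearly the same element there. RefSeq windows (GRCm38.p6) were found for 6 of the 7 genes, Iigp1 being without an entry. The 250 bases before each start were searched on both strands for the core of an interferon-stimulated response element, written here as 2 GAAA blocks with any 2 bases between them, and for TTCNNNGAA, the pattern of a gamma-activated site. The spelled patterns share no base in the windows printed here. Capitals mark both patterns in the next 4 sequences, each written 5′ to 3′ on the gene's own strand.
Tgtp1: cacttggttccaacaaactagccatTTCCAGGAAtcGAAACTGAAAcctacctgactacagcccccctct
Tgtp2: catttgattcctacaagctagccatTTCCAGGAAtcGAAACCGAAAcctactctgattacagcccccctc
Igtp: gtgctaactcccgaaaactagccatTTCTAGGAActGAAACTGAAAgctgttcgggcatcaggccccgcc
Irgm2: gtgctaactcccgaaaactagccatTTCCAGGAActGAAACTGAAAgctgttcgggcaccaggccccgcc

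These 70-base stretches lie at chr11:48992290-48992359 on the minus strand for Tgtp1, chr11:49064249-49064318 on the minus strand for Tgtp2, chr11:58199486-58199555 on the plus strand for Igtp and chr11:58214877-58214946 on the plus strand for Irgm2. Igtp and Irgm2 were identical at 68 of the 70 bases, and Tgtp1 and Tgtp2 at 52. Across the classes the stretches were identical at 42 to 46 bases, and 37 bases were the same in all 4. The element thus lies upstream of the RefSeq start in both GMS and GKS genes. By the gene coordinates given below (GENCODE), the Irgm2 and Tgtp1 stretches lie within the annotated gene, outside its exons. Those of Igtp and Tgtp2 lie before the annotated gene. The element begins 45 bases before the RefSeq start of Igtp, 75 before that of Irgm2, 81 before that of Tgtp2 and 88 before that of Tgtp1.

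Irgm1 had a different arrangement. A pair of overlapping response element cores lies 30 to 15 bases before its RefSeq start, with no TTCNNNGAA in the window. They are printed in capitals within 30 bases at chr11:48871426-48871455 on the minus strand, a stretch that an annotated Irgm1 exon reaches into.
Irgm1: ttcaaGAAATAGAAACCGAAActgattctc

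The Ifi47 window held neither pattern. The response element core was thus found in 5 of the 6 windows, and in 978 of 32851 windows of all genes (2.98%). TTCNNNGAA was found in 4 of the 6 and in 2306 of all windows (7.02%). Windows were also found for 6 other genes of the IRG family, described below. Of these, 2 held the response element core (Gm12185 and Gm12250) and 2 held TTCNNNGAA. Both with starts within 30 bases of each other, a distance chosen after the windows were read, were found in 4 of the 6 member windows. The same held for 40 of all windows (0.122%), these 4 included. Since Igtp and Irgm2 are close copies in this stretch and all 4 genes share bases there, the 4 are not independent examples. A match is a description of letters and no binding was measured.

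**Figure D1:**
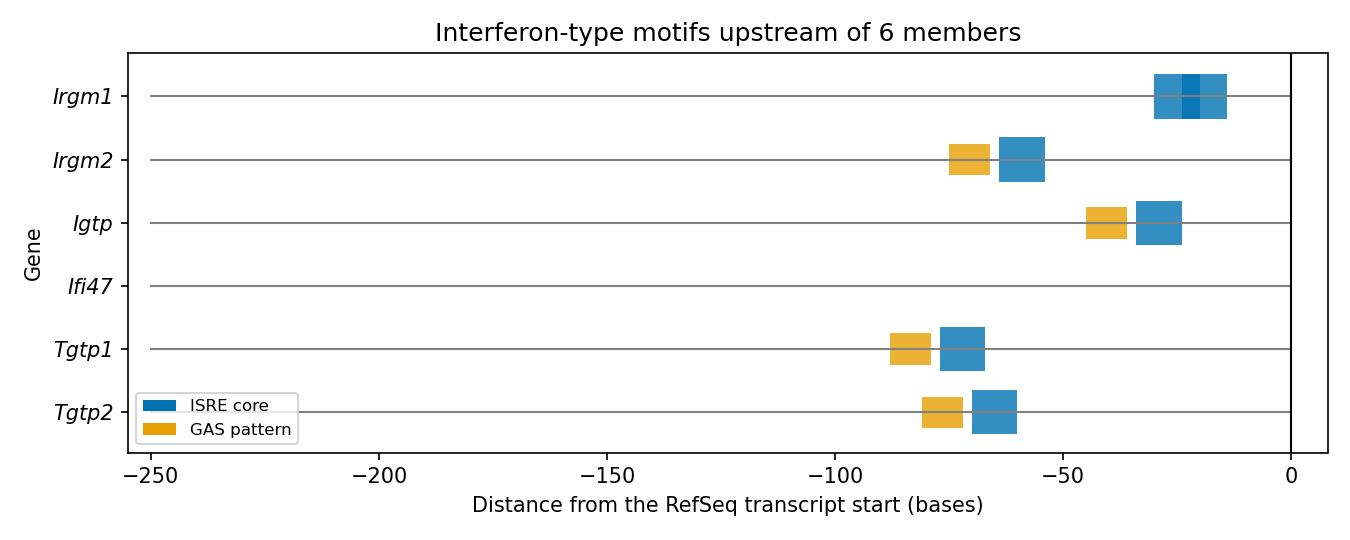
Positions of the 2 patterns in the 250 bases before the RefSeq start of 6 genes. The horizontal axis is the distance from the start in bases, blue boxes are the core of the interferon-stimulated response element (ISRE) and orange boxes the gamma-activated site (GAS) pattern; Irgm2, Igtp, Tgtp1 and Tgtp2 carry both side by side, Irgm1 carries 2 overlapping ISRE cores and Ifi47 neither.

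Per length of exon the GMS genes stood far above the GKS genes in every group. In controls, mean levels in CPM per kilobase of exon were 24.2 ± 3.06 for Igtp (SD, n = 3), 22 ± 3.56 for Irgm2 and 11.4 ± 0.841 for Irgm1. On the same scale and over the same libraries the effectors were at 0.673 ± 0.348 for Ifi47, 0.337 ± 0.109 for Iigp1, 0.21 ± 0.105 for Tgtp2 and 0.156 ± 0.115 for Tgtp1. Igtp and Irgm2 did not differ beyond their spread, nor did neighbouring effectors in that order. Of the 50-base words of each gene, 13.4% in Tgtp2 and 18.8% in Tgtp1 occur in no other gene, against 97.5% in Ifi47 and 98.3% in Iigp1. Reads matching both Tgtp genes may not have been counted. The place of Tgtp1 and Tgtp2 in the order, and their part in the family's sum, is therefore uncertain in every group. In NMO CD11c- cells the order of the effectors was the same with other spacing: Ifi47 (1.83 ± 0.353) and Iigp1 (1.79 ± 0.374) lay together, above Tgtp2 (0.642 ± 0.0503) and Tgtp1 (0.155 ± 0.0965), all in CPM per kilobase (SD, n = 3). In CD11c+ cells Ifi47 was at 2.24 ± 0.361, Iigp1 at 1.44 ± 0.102, Tgtp2 at 0.668 ± 0.158 and Tgtp1 at 0.0637 ± 0.0901 CPM per kilobase (SD, n = 2). The 3 GMS genes made up 98.4%, 97.3% and 97.4% of the family's summed level per kilobase in the control libraries. That share was 94.4%, 93.1% and 94.6% in NMO CD11c- libraries and 94% and 92.4% in CD11c+ libraries, so every NMO library lay below every control. The share is a ratio within a library and does not depend on how libraries are scaled.

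Among the GMS regulators, Irgm1 rose in both NMO subsets. Irgm1 (ENSMUSG00000046879, chr11:48861968-48871683, minus strand, GRCm38) is needed for resistance to mycobacteria and acts in autophagy. It was counted at 60.7, 70.2 and 67.4 CPM in the 3 control libraries, at 106, 115 and 112 in NMO CD11c- libraries and at 95.4 and 102 in CD11c+ libraries. All 5 NMO libraries were above all 3 controls. The log2 fold change against control was 0.75 (SE 0.0926, 95% interval 0.55 to 0.96, adjusted p = 0.00199) in CD11c- cells and 0.58 (SE 0.103, interval 0.35 to 0.81, adjusted p = 0.00761) in CD11c+ cells. In bulk libraries a change in the share of cells that express a gene and a change in RNA per cell cannot be told apart.

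Irgm2 (ENSMUSG00000069874, chr11:58199618-58222782, plus strand), a regulator found mainly at the Golgi, did not pass the test in any comparison. Its levels were 66, 90.3 and 86.8 CPM in controls, 92.6, 75.9 and 81 in NMO CD11c- libraries and 76.2 and 57.4 in CD11c+ libraries. The groups overlapped, with the lowest value in a CD11c+ library and the highest in an NMO CD11c- library. The log2 fold change against control was 0.04 (interval -0.29 to 0.36, adjusted p = 0.922) in CD11c- cells and -0.28 (interval -0.66 to 0.10, adjusted p = 0.298) in CD11c+ cells. The first interval leaves out a rise as large as the 0.75 fitted for Irgm1, as does the second.

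Igtp (ENSMUSG00000078853, chr11:58199556-58207591, plus strand), a regulator found mainly at the endoplasmic reticulum, also did not pass the test. It was at 46.8, 55.9 and 44.1 CPM in controls, 61.9, 54.4 and 55.5 in NMO CD11c- libraries and 52.3 and 51.3 in CD11c+ libraries. Control replicate 2 lay above 2 of the 3 NMO CD11c- libraries and above both CD11c+ libraries. The log2 fold change was 0.23 (interval -0.02 to 0.47, adjusted p = 0.316) in CD11c- cells and 0.08 (interval -0.20 to 0.36, adjusted p = 0.714) in CD11c+ cells. Igtp and Irgm2 share 162 bases of exon on the same strand and 11.8% of the 50-base words of Igtp also occur in Irgm2, so part of their counts could be exchanged between them.

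Ratios between regulators within a library need no scaling. The ratio of Irgm1 to Irgm2, both per kilobase, was 0.583, 0.493 and 0.493 in controls, 0.728, 0.967 and 0.881 in NMO CD11c- libraries and 0.795 and 1.13 in CD11c+ libraries. Irgm1 against Igtp was 0.437 to 0.532 in controls and 0.597 to 0.739 in the 5 NMO libraries. In neither ratio did control and NMO libraries overlap. These ratios show unequal change of the regulators and not which of them changed.

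Among the GKS effectors, Iigp1 had the largest fitted change of the 6 tested members in both comparisons with control. Iigp1 (ENSMUSG00000054072, chr18:60376027-60392634, plus strand) encodes a GTPase that accumulates on the Toxoplasma vacuole. It was counted 11, 18 and 20 times in the control libraries, 60, 86 and 64 times in NMO CD11c- libraries and 39 and 50 times in CD11c+ libraries. As CPM these were 1.35, 1.93 and 2.62, then 8.98, 12.9 and 9.4, then 7.97 and 8.81, and every NMO library lay above every control. The log2 fold change was 2.41 in CD11c- cells (SE 0.268, interval 1.81 to 3, adjusted p = 0.00107), a 5.3-fold higher level. It was 2.09 in CD11c+ cells (SE 0.301, interval 1.42 to 2.76, adjusted p = 0.00236), a 4.27-fold higher level. Of all tested genes 99.6% had a smaller log2 fold change than Iigp1 in CD11c- cells and 99.2% in CD11c+ cells.

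Ifi47 (ENSMUSG00000078920, chr11:49076587-49096974, plus strand), an effector of the same class, rose in CD11c+ cells. It was at 0.856, 2.57 and 1.57 CPM in controls (7, 24 and 12 counts), 4.94, 5.12 and 3.53 in NMO CD11c- libraries and 4.9 and 6.17 in CD11c+ libraries. Control replicate 1 was the lowest and every NMO library was above every control. The log2 fold change was 1.71 in CD11c+ cells (SE 0.405, interval 0.81 to 2.61, adjusted p = 0.0276). The value for CD11c- cells, 1.41 (SE 0.368, interval 0.59 to 2.23, adjusted p = 0.0683), missed the threshold. The call in CD11c+ cells was lost without CD11c+ replicate 1 (adjusted p = 0.0506), without control replicate 1 (0.0729), without control replicate 3 (0.0955) and when the groups compared were fitted alone (0.0687). Ifi47 shares 111 bases of exon with Olfr56 on its own strand.

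Tgtp2 (ENSMUSG00000078921, chr11:49057194-49064206, minus strand) and Tgtp1 (ENSMUSG00000078922, chr11:48985327-48994172, minus strand) encode nearly the same protein, among the first to load onto a Toxoplasma vacuole. Of the 50-base words in Tgtp1 79.4% also occur in Tgtp2, and 85.8% of those in Tgtp2 occur in Tgtp1. How reads were divided between the genes, and whether reads matching both were counted, is therefore uncertain. Tgtp2 was counted 3, 9 and 4 times in controls, 12, 12 and 14 times in NMO CD11c- libraries and 8 and 13 times in CD11c+ libraries. In CPM the controls, at 0.367, 0.964 and 0.523, lay below all 5 NMO libraries, at 1.63 to 2.29. Its log2 fold change of 1.55 in CD11c- cells (interval 0.61 to 2.5, adjusted p = 0.0766) and 1.62 in CD11c+ cells (interval 0.55 to 2.69, adjusted p = 0.0592) missed the threshold.

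Tgtp1 did not pass the filter on low counts. It was counted 3, 2 and 7 times in controls, 5, 1 and 4 times in NMO CD11c- libraries and 2 and 0 times in CD11c+ libraries. From the summed counts, its ratio to control was 1.04 (95% interval 0.403 to 2.63) in CD11c- cells and 0.397 (0.0431 to 1.78) in CD11c+ cells. These intervals cover counting error alone, and a change of Tgtp1 was not detectable at these counts. With the counts of both genes summed, the log2 fold change was 1.08 in CD11c- cells (adjusted p = 0.127) and 0.95 in CD11c+ cells (adjusted p = 0.156). The sum would not hold reads that were counted for neither gene.

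**Figure D2:**
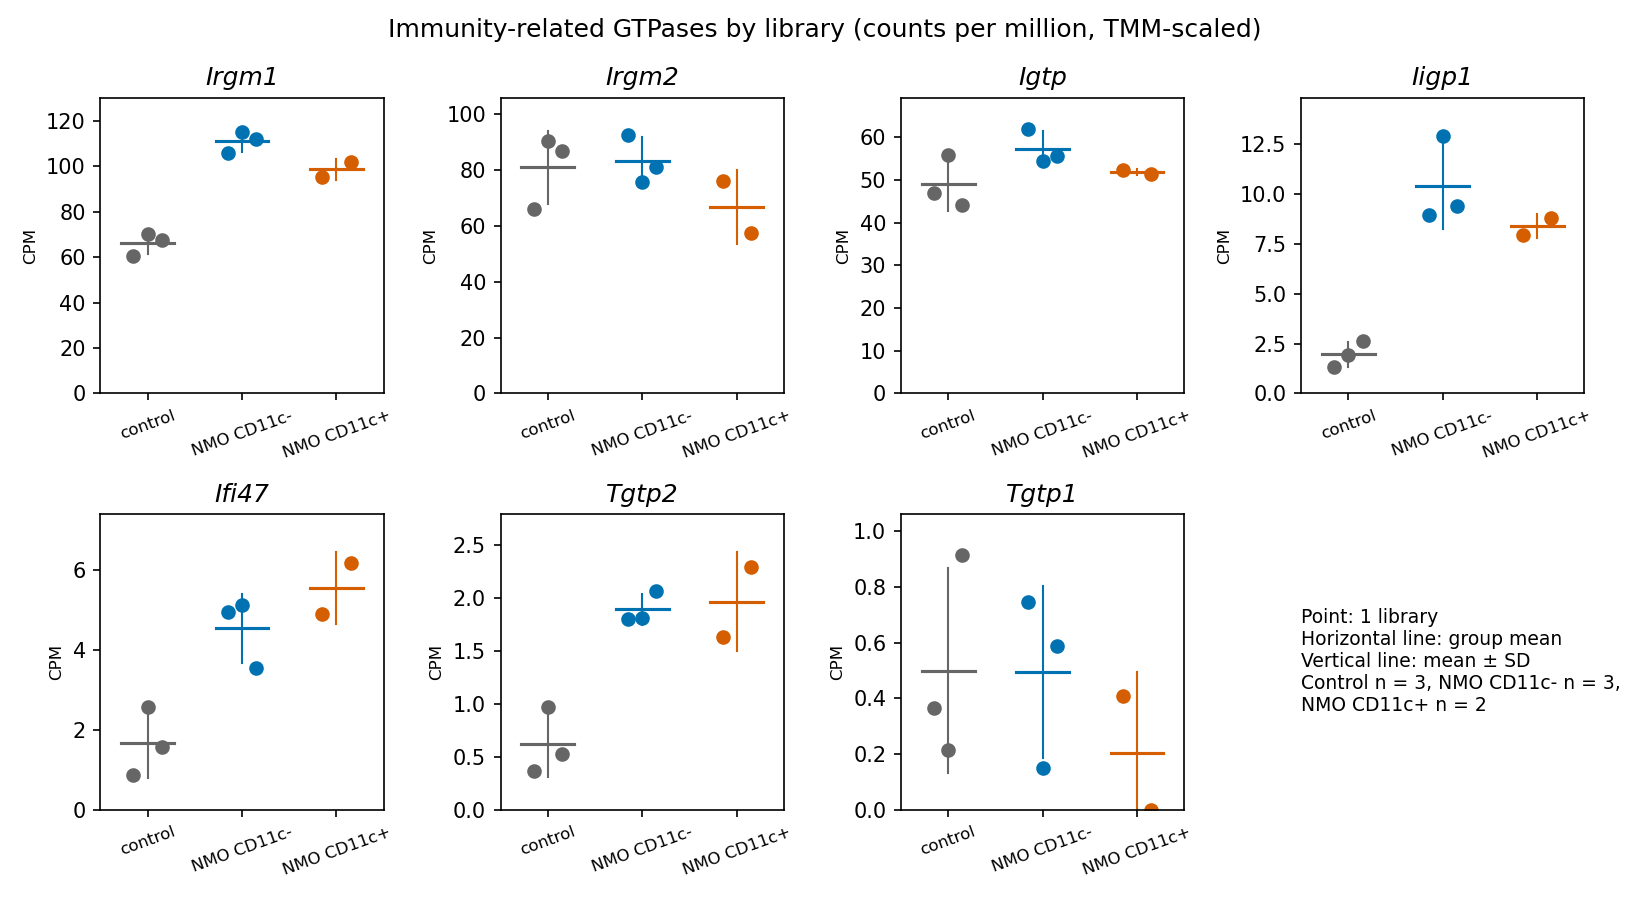
Level of each of the 7 genes in CPM by group, 1 panel a gene, with 1 point a library, a horizontal line at the group mean and a vertical line of 1 SD to each side. Irgm1, Iigp1, Ifi47 and Tgtp2 have every NMO point above every control point, whereas the groups overlap for Irgm2, Igtp and Tgtp1.

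Counted over the family, 2 of the 6 tested members rose in NMO CD11c- cells (Irgm1 and Iigp1) and 0 fell. Of all tested genes 3.72% were called in that comparison, 3% higher and 0.717% lower. In CD11c+ cells 3 members rose (Irgm1, Iigp1 and Ifi47) and 0 fell, where 10.2% of all tested genes were called, 6.85% higher and 3.36% lower. The median log2 fold change over the 6 was 1.083 in CD11c- and 1.101 in CD11c+ cells, against -0.004 and 0.006 over all tested genes. In each comparison 4 of the 6 had groups that did not overlap and lay higher in NMO, as did 17.6% of tested genes for CD11c- and 22.2% for CD11c+ cells. By class, the median was 0.23 and 0.08 over the 3 GMS genes, and 1.55 and 1.71 over the 3 tested GKS genes. Both comparisons use the same control libraries.

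Neutrophil markers also differed between these groups. The CD11c+ libraries held 17.6 to 22.2 CPM of summed neutrophil markers, below every control. In NMO CD11c- libraries the same sum was above every control. The part of these cells in the members' values was not tested in either group. Summed monocyte markers were at 60.1 to 71.9 CPM in CD11c+ libraries, 98.4 to 189 in controls and 246 to 1162 in NMO CD11c- libraries. In NMO CD11c- cells 4 of the 11 tested markers were called higher and 0 lower, with a median log2 fold change of 1.97. Chil3 was the largest part of that sum, at a mean of 392 CPM. Ccr2, at 13.1 CPM against 9.12 in controls, was not called. The markers did not move together in CD11c+ cells: Chil3, at a mean of 83.1 CPM in controls, was at 0.659, whereas Fn1 rose by 2.43 on the log2 scale (adjusted p = 0.000668), and the list's median log2 fold change was 0.25. Their part in the members' values was not tested.

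The NMO subsets were also compared with each other, which addresses whether CD11c+ and CD11c- microglia differ. No member passed the test in this comparison, in which 0.283% of all tested genes were called, 0.1% higher in CD11c+ cells and 0.183% lower. At an unadjusted p under 0.05 the count of members was also 0, and it was 0 with DESeq2 and with edgeR's exact test. The log2 difference of CD11c+ minus CD11c- cells was -0.17 for Irgm1 (interval -0.40 to 0.06), -0.32 for Irgm2 (-0.70 to 0.06) and -0.15 for Igtp (-0.43 to 0.14). For the effectors it was -0.31 for Iigp1 (-0.91 to 0.29), 0.29 for Ifi47 (-0.55 to 1.14) and 0.07 for Tgtp2 (-0.90 to 1.03). The adjusted p ranged from 0.38 to 0.951. Irgm1, Igtp and Iigp1 lay lower in both CD11c+ libraries than in all 3 CD11c- libraries, as did 14.2% of tested genes. The intervals of the effectors are wider than those of the regulators. With the CD11c+ group at n = 2, the sign of the Iigp1 difference turned, to 0.028, when counts were corrected for GC content and length.

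**Figure D3:**
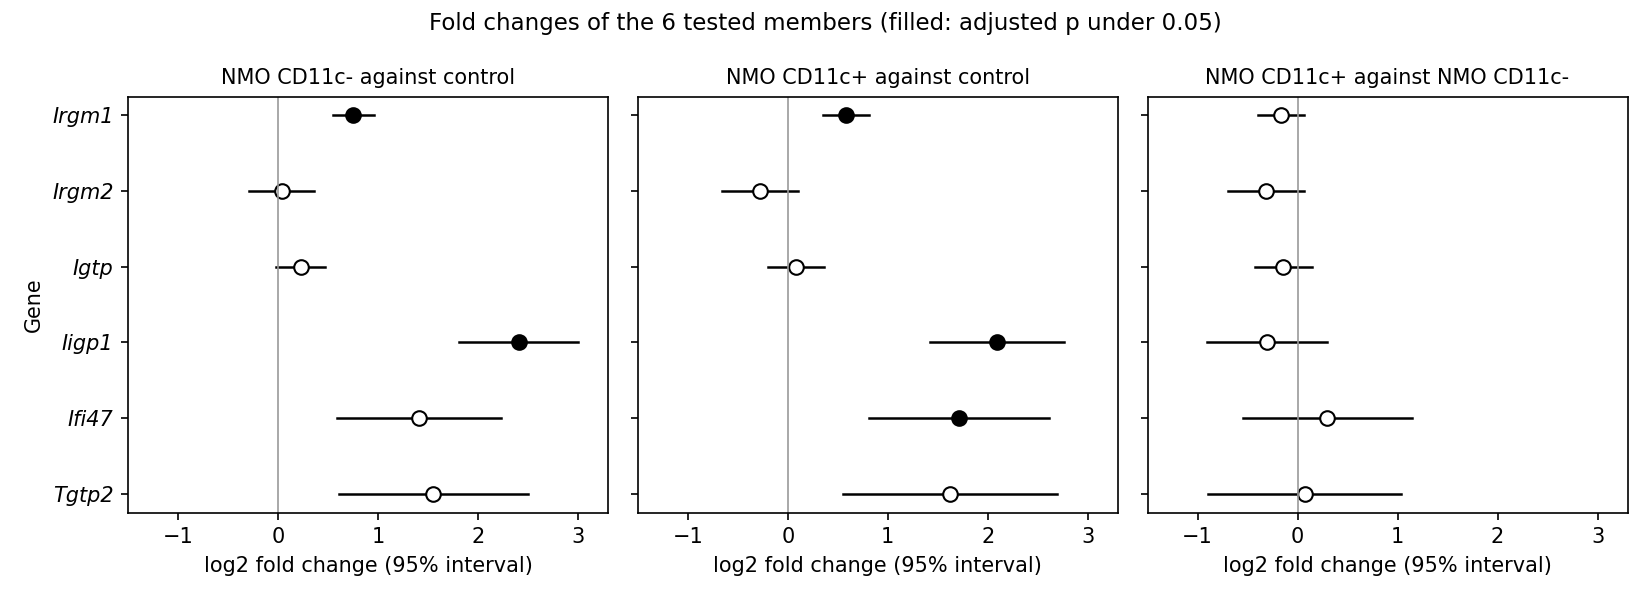
Log2 fold change (horizontal axis) of the 6 tested members in the 3 comparisons, with 95% intervals as lines and filled points where the adjusted p was under 0.05. Irgm1 and Iigp1 are filled in both comparisons with control and Ifi47 in that of CD11c+ cells, and in the comparison of the subsets every interval crosses 0.

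Other genes of the IRG family were read from a list of 14 names, of which 12 had an identifier in the files and 9 were tested. In NMO CD11c- cells 4 of the 9 rose and 0 fell, and in CD11c+ cells 2 rose and 0 fell. The list's median log2 fold change was 0.22 in CD11c- and -0.05 in CD11c+ cells. Gm12250, the gene of the effector Irgb10, which the annotation lists as a processed pseudogene, was at 6.01 ± 0.815 CPM in controls (SD, n = 3) and 12 ± 2.56 in NMO CD11c- cells (n = 3). Its log2 fold change was 1.0 (adjusted p = 0.0313). Gm5431, an IRG gene beside Irgm1, went from 8.87 ± 0.729 to 17 ± 1.28 CPM, a log2 fold change of 0.94 (adjusted p = 0.0189). In CD11c+ cells the values of 0.70 for Gm12250 (adjusted p = 0.0944) and 0.58 for Gm5431 (0.0955) missed the threshold.

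The other 2 genes that rose are neighbours of Iigp1. Gm4951 was at 2.57, 3.54 and 3.27 CPM in controls, 8.53, 10.5 and 6.47 in NMO CD11c- libraries and 5.92 and 9.87 in CD11c+ libraries. F830016B08Rik was at 1.71, 1.93 and 1.83 CPM in controls, 4.49, 5.57 and 3.38 in NMO CD11c- libraries and 4.7 and 4.93 in CD11c+ libraries. Both had NMO libraries wholly above controls. The log2 fold change of Gm4951 was 1.44 in CD11c- cells (adjusted p = 0.0196) and 1.34 in CD11c+ cells (0.0252). For F830016B08Rik it was 1.28 (adjusted p = 0.032) and 1.39 (0.0207). Each of the 4 calls in CD11c- cells was lost in 5 of the fits that left out a library (adjusted p up to 0.155 for Gm12250, 0.101 for Gm5431, 0.106 for Gm4951 and 0.143 for F830016B08Rik). In CD11c+ cells the call was lost in 5 alternatives for Gm4951 (up to 0.0879) and 4 for F830016B08Rik (up to 0.0725). Without CD11c+ replicate 2 the value for Gm4951 was 0.91.

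By position, the family lies mainly in 3 clusters. On chromosome 18, between 60212080 and 60392634, Gm4951, Gm4841, F830016B08Rik and Iigp1 lie together, and all 3 tested genes rose in both NMO subsets (median log2 fold change 1.44 and 1.39). Gm4841 did not pass the filter on low counts. It was counted 7 times in controls, 11 times in NMO CD11c- cells and 13 times in CD11c+ cells. Its ratio to control was 1.96 (0.695 to 5.97) and 4.42 (1.64 to 13.1). These intervals cover counting error alone and not the spread between libraries, so no rise is read from them. On chromosome 11, between 48861968 and 49096974, 7 of 9 genes were tested and 2 rose in each subset, Irgm1 and Gm5431 in CD11c- cells and Irgm1 and Ifi47 in CD11c+ cells. Farther along chromosome 11, between 58187739 and 58222782, Irgm2, Igtp and Gm12250 lie side by side, and 1 of 3 rose in CD11c- cells and 0 in CD11c+ cells.

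Of the remaining genes of this list, those tested did not pass the test in either subset, and Irgc1 and Gm12187 were not tested. 9930111J21Rik1 was at 24 ± 5.5 CPM in controls, 27.8 ± 3.16 in NMO CD11c- and 22.6 ± 5.13 in CD11c+ cells, and 9930111J21Rik2 at 37.7 ± 7.57, 43.9 ± 6.02 and 31.1 ± 8.39. These close copies share 80.4% of the 50-base words of the first, so their separate values are uncertain. Gm12185 was at 7.35 ± 1.26, 7.42 ± 2.15 and 6.99 ± 3.82 CPM and overlaps Tgtp1 by 223 bases of exon. Irgq, which lacks a working GTPase site, was at 45.5 ± 2.72, 41.1 ± 1.17 and 42.9 ± 6.08 CPM. Gm4070 was at 2.72 ± 0.273, 3.08 ± 1.39 and 2.25 ± 0.3 CPM. It shares 95% of its 50-base words with Gvin1, a gene of the list of other interferon-inducible GTPases, so its place in the IRG list is uncertain. Irgc1, a gene of the testis, was counted 3 times in each group, and Gm12187 had 0 counts in all 8 libraries.

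The interferon pathway was read from its ligands to its targets. The ligands were at or near 0: Ifng, which encodes interferon gamma, had 0 counts in all 8 libraries, which allows up to 0.321 to 0.613 CPM a library. Ifna1, Ifna5, Ifnl2, Ifnl3, Ifne and Ifnk were also at 0 in every library. Ifnb1, which encodes interferon beta, was counted 2 times in controls, 8 times in NMO CD11c- cells and 1 time in CD11c+ cells, and Ifna2 and Ifna4 1 time each in all. Markers of T cells and NK cells, which make interferon gamma, summed to 2.04 to 2.75 CPM in controls, 2.39 to 6.47 in NMO CD11c- and 1.59 to 2.25 in CD11c+ libraries. Of these 18 markers 6 were at 0 in all 8 libraries, Cd3e, Cd3g and Ncr1 among them. The libraries hold isolated microglia, so interferon made by other cells of the tissue was not measured.

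Of 18 receptor and signalling genes, 5 rose in each subset and 0 fell, with a median log2 fold change of 0.07 in CD11c- and 0.25 in CD11c+ cells. Stat2, which carries the type I interferon signal, was at 82.5 ± 2.83 CPM in controls (SD, n = 3), 161 ± 13.5 in NMO CD11c- (n = 3) and 156 ± 3.5 in CD11c+ cells (n = 2). Its log2 fold change was 0.96 (adjusted p = 0.0005) in CD11c- and 0.92 in CD11c+ cells. Irf7, which amplifies type I interferon, rose by 2.07 (adjusted p = 0.000163) and 2.29, and Usp18, which dampens the type I receptor, by 1.69 (adjusted p = 0.00532) and 1.84. Irf9, which acts with Stat2, rose by 0.40 in CD11c- cells (adjusted p = 0.0357), a call lost in 6 fits that left out a library (up to 0.195).

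The receptors of interferon gamma were well expressed in all groups. Ifngr1, the binding chain, was at 693 ± 28.4 CPM in controls, 690 ± 63.8 in NMO CD11c- and 592 ± 60 in CD11c+ cells and did not pass the test. Ifngr2, the signalling chain, was at 211 ± 13.8, 267 ± 7.57 and 305 ± 23 CPM and rose by 0.53 in CD11c+ cells (adjusted p = 0.0156). That call was lost without control replicate 1 or control replicate 2 and when the groups compared were fitted alone (adjusted p up to 0.0738). Irf1, an early interferon gamma target and a direct activator of IRG genes, was at 108 ± 14.1, 108 ± 3 and 128 ± 1.74 CPM and did not pass the test. Ifnar1, Ifnar2, Jak1, Jak2, Tyk2, Irf2, Irf8, Socs1, Socs3 and Ptpn2 did not pass it in either subset.

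Other interferon-inducible GTPases were read from a list of their own. Of 10 tested, 3 rose in each subset (median log2 fold change 0.76 and 0.58), and 1 fell in CD11c+ cells. Mx1, a GTPase that blocks viruses, rose by 2.20 in CD11c- (adjusted p = 0.000231) and 2.15 in CD11c+ cells. Gbp2 and Gbp4, guanylate-binding proteins that join IRG proteins at vacuoles, rose by 1.0 (adjusted p = 0.00624) and 1.67 (0.00237) in CD11c- cells and by 1.35 and 1.92 in CD11c+ cells. Mx2 missed the threshold (log2 fold change 0.87, adjusted p = 0.053, in CD11c- cells). Gbp7, named after its value was seen, was the gene that fell, with a log2 fold change of -0.52 in CD11c+ cells, a call lost in 9 of 20 alternatives (adjusted p up to 0.499).

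Among targets, 15 of 16 genes that respond mainly to type I interferon rose in each subset (median log2 fold change 2.05 and 2.21). Oasl2, Oas2, Ifit2 and Ifit3, all antiviral genes, rose by 2.42, 2.76, 2.26 and 2.14 in CD11c- cells. Of 10 tested genes that respond mainly to interferon gamma, 4 rose in CD11c- cells (median 0.94) and 7 in CD11c+ cells (median 1.58). The type I list shares Mx1 and Mx2 with the GTPase list, and Irf7 and Usp18 with the receptor and signalling list. The interferon gamma list shares Gbp2b with the former, and Irf1 and Socs1 with the latter. The counts of these lists are therefore not separate. H2-Ab1 and H2-Eb1, which encode MHC class II chains, rose by 0.92 and 0.97 in CD11c- cells and by 1.48 and 1.77 in CD11c+ cells. Cxcl9, a T cell attractant, rose by 2.22 and 3.15, and Acod1, which makes itaconate, by 2.97 and 2.51 from 5 counts in controls. The 4 calls in CD11c- cells were lost in 2 to 5 alternatives each (adjusted p up to 0.114), and that of Acod1 in CD11c+ cells in 9 of 15. On the same scale the IRG members' medians of 1.083 and 1.101 lay below the type I list in both subsets. They lay above the interferon gamma list in CD11c- cells and below it in CD11c+ cells. These medians join unlike classes, with 0.23 and 0.08 for the GMS genes and 1.55 and 1.71 for the tested GKS genes.

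**Figure D4:**
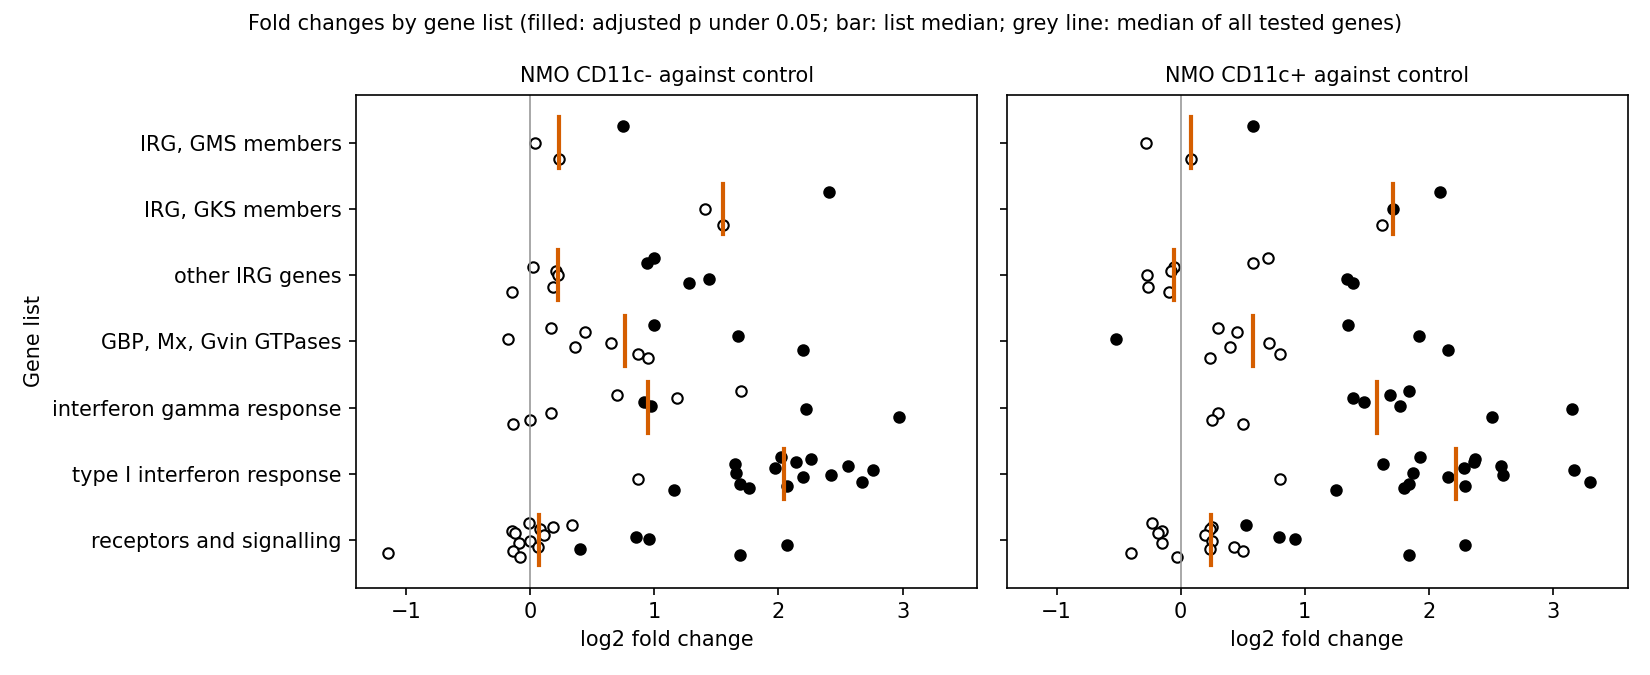
Log2 fold change (horizontal axis) of each tested gene by list, against control, for NMO CD11c- (left) and CD11c+ cells (right). Filled points had an adjusted p under 0.05, orange bars are list medians and the grey line is the median of all tested genes; the type I interferon list lies near 2 in both panels, and the IRG lists spread from near 0 to the Iigp1 values of 2.41 and 2.09.

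IRG proteins find their targets with the help of the ATG8 proteins that mark the cell's own membranes and the enzymes that attach these. Of 13 genes of this machinery, 0 passed the test in CD11c- cells (edgeR, 3 at an unadjusted p under 0.05), and 1 rose in CD11c+ cells. That gene, Gabarap, which encodes an ATG8 protein and is named after its value was seen, was at 131 ± 14.3 CPM in controls and 221 ± 45.7 in CD11c+ cells, a log2 fold change of 0.75. Its call was lost in 1 of 20 alternatives (adjusted p = 0.0797). The medians of the list were -0.10 and -0.01.

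Likeness of profile was measured as the root mean square difference between log2 CPM values, each gene centred on its own mean, over the 8 libraries. Against the mean profile of the 6 tested members the nearest genes were 1600014C10Rik (0.109), Stat2 (0.135), Sec31b (0.136), Gm6548 (0.144) and Sash1 (0.152), where the median over all tested genes was 0.546. This mean joins unlike members, which differed by up to 1.12 (Irgm2 and Iigp1). Neither Stat2 nor the others nearest to the mean were among the genes listed next for single members. Nearest to Irgm1 were Parp14 (0.0716), Stag3 (0.0857) and Atp5g2 (0.0935). Iigp1 was nearest to Minar1 (0.19), Mx1 (0.216) and Ifitm3 (0.241), against a median of 1.11. For Irgm2 they were Kctd11, Tifab and Cdk5r1 (0.0764 to 0.0946), and for Igtp Zfp691, Mrpl44 and Il7r (0.0358 to 0.0565). For Ifi47 they were Troap, Tmem82 and Gpr65 (0.185 to 0.242), and for Tgtp2 Gpr65, Arl5c and Pla2g7 (0.0933 to 0.215). Within the family Irgm2 was nearer to Igtp (0.211) than to Irgm1 (0.417) or Iigp1 (1.12). All profiles share the same 8 libraries and their depth, and genes with few counts have noisier profiles.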

How the data were processed

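The whole-number gene counts are as deposited by the authors, 1 file a library. The submitters' processing notes name STAR, HTSeq 0.5.4 and the build GRCm38; the strand setting is not given in the sources used here. Symbols, coordinates, exon lengths and 50-base words came from GENCODE M21 (40254 of 41388 identifiers matched; the 1134 without a symbol held 0.155% of counts) and upstream sequences from RefSeq. All 8 libraries entered 1 edgeR 4.0.16 quasi-likelihood fit (R 4.3.3, TMM scaling, filterByExpr with a minimum count of 10, residual degrees of freedom 5, prior 5.08), with calls at an adjusted p (Benjamini-Hochberg, over all 12002 tested genes) below 0.05. Intervals of 95% use the fitted SE. CPM are relative to the scaled library size. The script was tested on simulated data, and no pair of libraries within a group was a duplicate (chi-square per degree of freedom at least 6.311). Counting intervals and floors (3 counts) cover counting error only.

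The members and gene lists were chosen with earlier results of these data known. Named were all members, the ligands, receptors, signalling and other IRG genes, up to 4 genes of each other list with the smallest p in NMO CD11c- cells, and nearest profiles by rank. Of the genes so named, 1 is not reported here. Names without counts here were Irgb10, Irgc, Gbp5, Gbp6 and Gbp10. Alternatives were RLE, upper-quartile and library-size scaling, no filter, a minimum count of 50, DESeq2 1.42.0, edgeR's exact test, a fit of the groups compared alone, a 2-fold threshold, a correction for GC content and length, summed Tgtp counts and each library left out. The correction without each CD11c+ library was chosen after seeing the data.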

Additional observations from a re-analysis of the deposited data

How the results depend on the processing

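Irgm1 and Iigp1 were called higher in NMO in all 20 alternatives of both comparisons with control, with log2 fold changes of 0.69 to 0.8 and 2.2 to 2.65 in CD11c- cells and 0.52 to 0.72 and 1.89 to 2.68 in CD11c+ cells. The 2-fold threshold is outside these 20: it left 1 member in CD11c- cells, since Irgm1 changed by less. Of 353 member values over all alternatives 322 kept their direction and side of the threshold, 15 passed it newly and 4 no longer did, the 4 being Ifi47 in CD11c+ cells. In CD11c- cells 4 members in place of 2 were called with edgeR's exact test, with the groups compared fitted alone, and with the GC and length correction without either CD11c+ replicate, as Ifi47 and Tgtp2 passed. Ifi47 passed there in 9 of 19 alternatives and Tgtp2 in 4 of 19. In CD11c+ cells Tgtp2 passed with the exact test (adjusted p = 0.0262) and with the GC and length correction (0.0356). Leaving out 1 library gave 2 to 3 members called in each comparison with control and 0 between the subsets. A minimum count of 50 removed Ifi47 and Tgtp2. The 12 values that changed sign were all uncalled. For Irgm2 in CD11c- cells these were -0.047 without NMO CD11c- replicate 1, -0.092 without control replicate 1, so that leaving out 1 library gave -0.092 to 0.12, and -0.0061 and -0.0031 with the correction without CD11c+ replicate 1 or 2. The correction without CD11c+ replicate 2 gave 0.068 for Irgm2 in CD11c+ cells, and between the subsets 0.013 for Irgm1, 0.071 for Irgm2 and 0.29 for Iigp1; without replicate 1 it gave -0.027 for Igtp in CD11c+ cells, and with all libraries 0.028 for Iigp1 between the subsets. Between the subsets Tgtp2 was at -0.13 with Tgtp1 added and -0.21 without CD11c+ replicate 2 (-0.21 to 0.28 with 1 library left out). The cause was not tested.

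The background moved more. For CD11c- cells against control, 446 genes were called, against 1157 with no filter, 696 with DESeq2, 881 with the exact test, 1221 with the groups compared alone, 857 with the GC and length correction (544 higher and 313 lower, against 360 and 86), 1521 and 1514 with it and without CD11c+ replicate 1 or 2, and 210 at 2-fold; leaving out 1 library gave 141 to 1193. For CD11c+ cells the 1225 became 2115 with no filter, 627 with the groups alone, 2037 with the correction without CD11c+ replicate 2, 435 at 2-fold and 487 to 4077 without 1 library. Between the subsets the 34 became 707 with no filter, 268 with DESeq2, 305 with the exact test, 5 with the groups alone, 102 with the correction (49 higher and 53 lower, against 12 and 22), 65 and 635 with it and without CD11c+ replicate 1 or 2, and 4 to 3016 without 1 library. Library size alone gave 8 higher and 24 lower between the subsets. No paired analysis was possible because the labels give the groups no shared numbers. Low counts limit the effectors: Tgtp1 and Tgtp2 had at most 14 counts in any library, and they share most of their 50-base words.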
